A study of Mus musculus with 18 samples.

Results

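The 10 genes followed here encode the vascular endothelial growth factor (VEGF) receptors Kdr, Flt1 and Flt4, the ligands Vegfa and Vegfc, the angiopoietin receptor Tek with its ligands Angpt1 and Angpt2, and the endothelial surface proteins Emcn and Plvap. They were chosen by gene symbol. The rule uses no measured value, but it was set with earlier results of these data known, so the counts of members below describe these genes and are no independent test of them. Each symbol matched 1 of the 37991 genes counted in kidney RNA, and all 10 passed the filter on low counts together with 16824 genes in all. The mice were male Balb/c animals, with no allele or transgene named. They received 1 intraperitoneal dose of folic acid, 250 mg/kg in sodium bicarbonate, and kidneys were taken 1, 2, 3, 7 or 14 days later. Mice without treatment made the sixth group. Each of the 6 groups had 3 libraries. The untreated group had no injection of sodium bicarbonate named in its labels, so effects of the vehicle and of the drug cannot be told apart. No age is given in the sources used here. The labels do not say that each library came from its own mouse, and p-values then reflect library-to-library spread, which may be technical.

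Folic acid at a high dose injures the renal tubule, and the kidney then passes through inflammation, regeneration and scarring. Kidney endothelium lines the glomerular and peritubular capillaries. VEGF-A, made largely by podocytes and tubule cells, acts through VEGFR2, the product of Kdr, while VEGFR1, the product of Flt1, binds VEGF-A tightly and can act as a decoy. Angiopoietin-1 from perivascular cells activates the receptor TIE2, the product of Tek, and stabilises vessels, whereas angiopoietin-2 released by endothelium can oppose it.

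Between 8.68 M and 54.6 M reads (M, mega) per library were assigned to genes, and 59.0 to 75.6% of them came from 37 mitochondrial genes. The remainder was 2.83 M to 17.2 M reads. Day 2 replicate 2 was the shallowest library and held 4 to 161 reads of each member, against as many as 3531 reads of Vegfa elsewhere. Levels are given as CPM (reads relative to the TMM-scaled library total), which carry no correction for gene length, so they are compared within a gene and not between genes. All 29 genes of an endothelial list (Pecam1, Cdh5, Erg and others) passed the filter, and in untreated kidneys Pecam1 was at 9.86 ± 2.41 CPM and Cdh5 at 10.2 ± 3.41 CPM (SD, n = 3). The whole kidney was sequenced, so fewer endothelial cells and less RNA of these genes per cell cannot be told apart.

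Kdr, Tek, Emcn, Plvap and Vegfa were lower than in untreated kidneys on days 1, 2 and 3, Flt1 was lower on day 3, and by day 14 no member passed the test against untreated. A gene was called at a Benjamini-Hochberg adjusted p under 0.05 in edgeR's quasi-likelihood test. On day 1, 5 of the 10 members were called lower, where 5.56% of all genes were. The count was 5 on day 2 (5.98% of all genes), 6 on day 3 (3.43%) and 2 on day 7 (3.85%), and no member was called higher at any of these times. On day 14 edgeR called 0 members, where 1.55% of all genes changed in either direction. At an unadjusted p under 0.05 it gave 2, Kdr and Vegfa, while DESeq2 called 1 (Vegfa, adjusted p = 0.0132) and limma-voom 0. A difference that misses the threshold with 3 libraries a group is not shown to be absent. The median log2 fold change of the members was -1.20, -1.53, -1.55, -0.74 and -0.40 at the successive times, beside 0.05, 0.03, 0.07, 0.06 and 0.04 over all genes tested. Over the 6 groups together, 6 of the 10 members differed, where 19.7% of all genes did, and these were Kdr, Flt1, Vegfa, Tek, Emcn and Plvap. The libraries of 7 members lay wholly below the untreated ones on day 1 (15.1% of all genes), 7 on day 2 (14.8%), 7 on day 3 (13.7%), 4 on day 7 (13.6%) and 2 on day 14 (10.2%). The 5 comparisons with untreated kidneys share the same 3 untreated libraries.

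**Figure D1:**
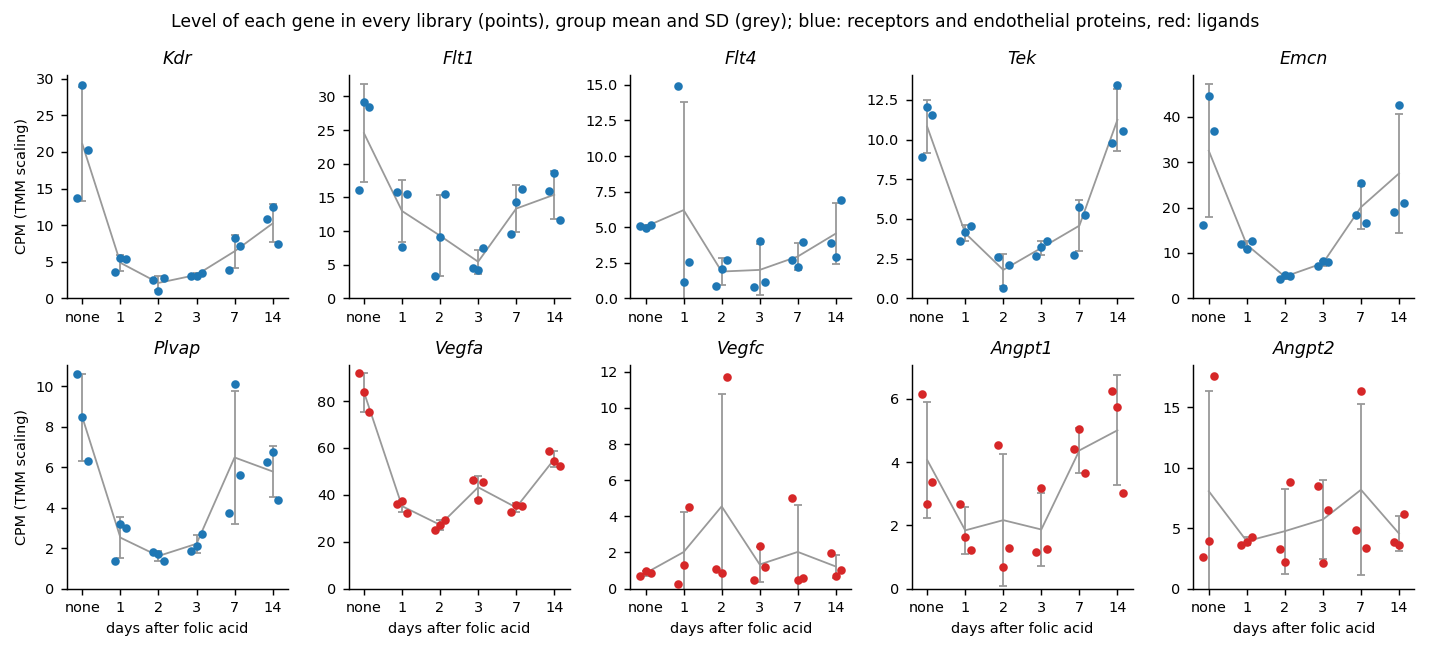
Level of each of the 10 genes (CPM, linear axis from 0, a scale of its own in each panel) in the 18 libraries by day after folic acid. Points are libraries (blue for receptors and endothelial proteins, red for ligands), the grey line joins group means and grey bars are the SD of 3, cut off at 0; Kdr, Tek, Emcn, Plvap and Vegfa are lowest in mean on day 2, and Vegfc, Flt4 and Angpt2 each have single libraries far above the rest.

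Scaling bears on some of these calls. The counts of higher and lower calls over all genes were near balance on day 3 (54.9% of calls higher) and day 7 (50.2%) with TMM, but 91.2% and 93.2% of calls were higher when libraries were scaled by their totals alone. With totals the median log2 fold change of all genes moved by 0.58 on day 3 and 0.67 on day 7, by 0.14 and 0.25 on days 1 and 2, and by 0.32 on day 14. The higher share also moved from 54.6 to 69.0% on day 2 and from 80.0 to 95.9% on day 14, and for day 7 against day 2 from 53.1 to 87.3%, with a median shift of 0.42. With totals, 3 members were called lower on day 3 (Kdr, Flt1 and Emcn) and 0 on day 7. At an unadjusted p under 0.05, TMM gave 3 members on day 7, and with TMM DESeq2 called 3 and limma-voom 3.

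The stretch before the transcription start is printed for the 5 members whose change was called and that have an entry in the RefSeq table used here (GRCm38.p6, 250 bases each, 5′ to 3′ on the gene's strand), since each of them fell after folic acid at 1 or more times. Of the 10 members 7 matched that table, all but Angpt1, Angpt2 and Plvap. Capitals mark 1 form each of an ETS motif (AGGAAG, or CTTCCT on the other strand), a GATA motif (AGATAA or TTATCT) and a hypoxia response core (ACGTG or CACGT). These are motifs of factors known to act in endothelium or in low oxygen. Sites with other letters, such as GGAA alone, were not searched. The windows are chr5:75978456-75978705 for Kdr and chr5:147726012-147726261 for Flt1, both on the minus strand. Those of Tek and Emcn, on the plus strand, are chr4:94739039-94739288 and chr3:137340828-137341077. Vegfa, on the minus strand, has chr17:46032378-46032627 before the first of its 2 listed starts.
Kdr: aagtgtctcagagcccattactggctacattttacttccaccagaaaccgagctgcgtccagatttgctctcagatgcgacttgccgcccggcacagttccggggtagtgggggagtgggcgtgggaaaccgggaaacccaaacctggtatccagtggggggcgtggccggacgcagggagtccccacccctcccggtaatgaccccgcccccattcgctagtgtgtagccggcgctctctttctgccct
Flt1: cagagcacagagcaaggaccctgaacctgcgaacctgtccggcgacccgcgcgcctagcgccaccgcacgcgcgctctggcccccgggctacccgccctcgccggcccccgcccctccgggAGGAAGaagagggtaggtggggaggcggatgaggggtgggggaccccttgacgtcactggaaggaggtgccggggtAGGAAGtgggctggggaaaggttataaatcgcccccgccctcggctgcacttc
Tek: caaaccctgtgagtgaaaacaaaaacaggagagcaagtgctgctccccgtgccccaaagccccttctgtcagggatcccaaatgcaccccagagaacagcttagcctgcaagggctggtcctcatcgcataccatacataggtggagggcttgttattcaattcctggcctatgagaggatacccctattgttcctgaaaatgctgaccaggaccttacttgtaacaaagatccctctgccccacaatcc
Emcn: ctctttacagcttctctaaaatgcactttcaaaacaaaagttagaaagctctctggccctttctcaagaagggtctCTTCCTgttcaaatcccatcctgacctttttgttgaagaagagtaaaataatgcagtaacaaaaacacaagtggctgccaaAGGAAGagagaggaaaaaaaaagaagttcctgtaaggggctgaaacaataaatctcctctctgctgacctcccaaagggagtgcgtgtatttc
Vegfa: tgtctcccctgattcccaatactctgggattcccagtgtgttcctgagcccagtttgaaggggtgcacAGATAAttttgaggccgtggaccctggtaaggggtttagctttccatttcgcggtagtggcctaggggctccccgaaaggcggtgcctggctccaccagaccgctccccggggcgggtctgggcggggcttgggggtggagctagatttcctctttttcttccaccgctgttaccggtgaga
Flt1 had 2 matches to the ETS string, which begin at -129 and -53 from the start, and Emcn had 2, at -174 and -93. Kdr and Tek had none of these exact strings in their windows, which does not exclude other forms of the motifs. Vegfa had 1 GATA match. The window before the second listed Vegfa start, chr17:46025164-46025413, is not printed and lies downstream of the first start. It held 1 match to the hypoxia core and no GATA motif. Whether that window acts as a promoter was not tested, and bases farther than 250 from a start were not searched. Of 32851 mouse promoters of the same length, 29.48% held the ETS string, 9.988% the GATA string and 16.57% the hypoxia core, on either strand. The GC content ran from 40.8% in Emcn and 51.2% in Tek to 59.2% in Vegfa, 61.6% in Kdr and 70.4% in Flt1, with a median of 52.4% over all promoters. These 5 members had no one of these exact strings in common.

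Kdr (ENSMUSG00000062960), the main signalling receptor for VEGF-A on endothelium, had the largest drop of the 10 members on days 1, 2, 3 and 7. It stood at 13.8, 29.2 and 20.3 CPM in the untreated libraries. It was at 3.59, 5.58 and 5.41 CPM on day 1, at 2.47, 1.01 and 2.84 on day 2, and at 3.08, 3.11 and 3.44 on day 3. The values were 3.88, 8.23 and 7.18 CPM on day 7 and 10.9, 12.4 and 7.38 on day 14. Every treated library, at every time, lay below the lowest untreated one. The mean went from 21.1 ± 7.74 CPM to 2.11 ± 0.966 on day 2 (SD, n = 3 each), and reached 48.6% of untreated on day 14. The fitted level was 4.33-fold lower on day 1 (log2 -2.11, SE 0.41, adjusted p = 0.00239), 9.57-fold lower on day 2 (-3.26, SE 0.44, adjusted p = 8.36e-05), and 6.56-fold lower on day 3 (-2.71, SE 0.43, adjusted p = 0.000741). On day 7 it was 3.28-fold lower (-1.71, SE 0.41, adjusted p = 0.0144), and on day 14 the log2 difference of -1.04 (SE 0.40, adjusted p = 0.203) did not pass. The day 7 call was lost without untreated replicate 2 (log2 -1.41, adjusted p = 0.0849) or day 7 replicate 1 (-1.46, 0.0840), and with scaling by library totals (-1.06, 0.125).

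Flt1 (ENSMUSG00000029648), the tight-binding VEGF-A receptor that is also made in a soluble form, fell more slowly and with more spread. Counts per gene do not tell its transcripts apart. Untreated libraries held 16.1, 29.1 and 28.4 CPM. On day 1 the values were 15.8, 7.65 and 15.5 CPM, on day 2 they were 3.34, 9.13 and 15.5, and on day 3 they were 4.51, 4.28 and 7.53. Days 7 and 14 gave 9.50, 14.3 and 16.2 CPM and 16, 18.6 and 11.6 CPM. All libraries of days 1, 2 and 3 lay below the untreated ones, by a narrow margin on days 1 and 2, while both later groups overlapped untreated. Flt1 was called on day 3 only, at 4.50-fold lower (log2 -2.17, SE 0.47, adjusted p = 0.00885) and 22.2% of the untreated mean, and this call was lost without day 3 replicate 2 (-2.02, adjusted p = 0.0516). On day 2 the log2 difference of -1.40 (SE 0.47, adjusted p = 0.0529) did not pass, and it passed without day 2 replicate 3 (-2.04, 0.0141), in DESeq2 (-1.42, 0.0214), in limma-voom (-1.84, 0.0177) and with the replicate number as a block (-1.49, 0.0379). The difference over all 6 groups (adjusted p = 0.0328) was lost without untreated replicate 2 (0.0921), untreated replicate 3 (0.0872), day 3 replicate 1 (0.0866) or day 3 replicate 2 (0.0861). Scaling by library totals also ended it (0.0824).

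Flt4 (ENSMUSG00000020357), the VEGF-C receptor best known from lymphatic endothelium, passed no test. The untreated libraries were tight, at 5.06, 4.92 and 5.14 CPM. Day 1 replicate 1 held 14.9 CPM against 1.15 and 2.55 in the other 2 libraries of that day. The days 2 and 3 libraries ran from 0.763 to 4.05 CPM, all below untreated, and those of day 14 from 2.88 to 6.93, on both sides of it. The log2 difference was 0.29 on day 1 (SE 0.74, adjusted p = 0.866) and -1.43 on day 2 (SE 0.78, adjusted p = 0.250). In a list of lymphatic genes that other kidney cells express too, Pdpn rose 11.2-fold and Prox1 fell 13.9-fold on day 1 (adjusted p = 0.00360 and 0.00478).

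Tek (ENSMUSG00000006386), the angiopoietin receptor, followed Kdr down and was back at the untreated level on day 14. It was at 8.92, 12.0 and 11.5 CPM in untreated kidneys. It was at 3.59, 4.16 and 4.57 CPM on day 1, at 2.59, 0.676 and 2.11 on day 2, and at 2.69, 3.22 and 3.62 on day 3. Day 7 gave 2.73, 5.77 and 5.24 CPM and day 14 gave 9.76, 13.5 and 10.5. No library of days 1 to 7 reached the untreated range, and those of day 14 lay in and above it. Tek was 2.63-fold lower on day 1 (log2 -1.40, SE 0.41, adjusted p = 0.0336), 5.70-fold on day 2 (-2.51, SE 0.43, adjusted p = 0.000747) and 3.40-fold on day 3 (-1.77, SE 0.41, adjusted p = 0.0132). On day 7 the difference was -1.24 (SE 0.41, adjusted p = 0.0685; 0.00748 in DESeq2 and 0.0273 in limma-voom), and on day 14 it was 0.05 (SE 0.40, adjusted p = 0.971), with a mean of 104% of untreated. The day 1 call was lost when any 1 of its 6 libraries was left out (log2 -1.52 to -1.32, adjusted p = 0.0523 to 0.114), and the day 3 call without day 3 replicate 1 (-1.66, 0.0606) or replicate 2 (-1.78, 0.0527). Library totals also ended both, at -1.25 (0.106) and -1.19 (0.0941). With no low-count filter the day 1 call was lost too (-1.37, 0.0778).

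Emcn (ENSMUSG00000054690), which encodes endomucin, a sialomucin of capillary and venous endothelium, showed tight low values early and a wide range late. Untreated libraries held 16.2, 44.5 and 36.8 CPM. The values were 12.0, 10.8 and 12.6 CPM on day 1, 4.20, 5.24 and 4.92 on day 2, and 7.10, 8.15 and 8.0 on day 3. Day 7 had 18.3, 25.5 and 16.5 CPM and day 14 had 19.0, 42.6 and 21.0. The groups of days 1, 2 and 3 overlapped neither untreated nor each other, and every library of days 7 and 14 lay inside the untreated range. Emcn was 2.76-fold lower on day 1 (log2 -1.46, SE 0.37, adjusted p = 0.0137), 6.84-fold on day 2 (-2.77, SE 0.39, adjusted p = 0.000122) and 4.20-fold on day 3 (-2.07, SE 0.37, adjusted p = 0.00208). The day 7 and day 14 differences were -0.70 (SE 0.36, adjusted p = 0.272) and -0.24 (SE 0.36, adjusted p = 0.821). Without untreated replicate 2 the day 1 call was lost (-1.17, adjusted p = 0.0852), as it was without day 1 replicate 2 (-1.40, 0.0621).

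Plvap (ENSMUSG00000034845), which forms the diaphragms of fenestrae in peritubular capillaries, was at 10.6, 8.49 and 6.33 CPM in untreated kidneys. On day 1 it was at 1.36, 3.19 and 3.00 CPM, on day 2 at 1.79, 1.69 and 1.35, and on day 3 at 1.86, 2.08 and 2.70. Day 7 had 3.72, 10.1 and 5.62 CPM and day 14 had 6.25, 6.77 and 4.36. The first 3 groups lay wholly below untreated, and the last 2 overlapped it. Plvap was 3.34-fold lower on day 1 (log2 -1.74, SE 0.44, adjusted p = 0.0149), 5.27-fold on day 2 (-2.40, SE 0.46, adjusted p = 0.00204) and 3.82-fold on day 3 (-1.93, SE 0.44, adjusted p = 0.0122), and differed by -0.39 on day 7 (SE 0.43, adjusted p = 0.675). The day 1 call was lost without untreated replicate 1 (-1.55, 0.0631) or day 1 replicate 1 (-1.46, 0.0738). The day 3 call was lost without untreated replicate 1 (-1.76, 0.0522), day 3 replicate 1 (-1.82, 0.0564) or day 3 replicate 2 (-1.89, 0.0553), and with library totals (-1.37, 0.0591).

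Vegfa (ENSMUSG00000023951), the main ligand of Kdr and Flt1, had the smallest SE of the 10 and the smallest adjusted p on days 1, 2 and 7. Untreated libraries held 92.0, 84.0 and 75.4 CPM. The values were 36.0, 37.2 and 32.4 CPM on day 1, 24.9, 27.2 and 29.4 on day 2, and 46.4, 37.7 and 45.5 on day 3. They were 32.6, 35.8 and 35.3 CPM on day 7 and 58.8, 54.6 and 52.1 on day 14. No treated library reached the lowest untreated one, and the course was not steady: the mean was 32.4% of untreated on day 2, 51.6% on day 3, 41.3% on day 7 and 65.8% on day 14. Vegfa was 2.38-fold lower on day 1 (log2 -1.25, SE 0.20, adjusted p = 0.000451), 3.08-fold on day 2 (-1.62, SE 0.20, adjusted p = 4.41e-05), 1.94-fold on day 3 (-0.96, SE 0.20, adjusted p = 0.00667) and 2.42-fold on day 7 (-1.28, SE 0.20, adjusted p = 0.000858). The day 14 difference of -0.60 (SE 0.20, adjusted p = 0.132) did not pass in edgeR and passed in DESeq2 (-0.63, 0.0132). With library totals the day 3 and day 7 calls were lost (-0.39, adjusted p = 0.300, and -0.60, 0.102).

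Marker genes of cell types known to make VEGF-A were followed in the same libraries. The summed level of 10 podocyte genes was 114 to 194 CPM in untreated libraries, 51.2 to 76.3 on day 2 and 103 to 138 on day 14. That of 10 proximal tubule genes was 8679 to 9300 CPM untreated, 1837 to 2081 on day 2 and 2342 to 6470 on day 14, and that of 8 thick limb and distal tubule genes was 1696 to 2335, 273 to 400 and 1718 to 2378 CPM. Of the proximal tubule genes 9 were called lower on day 1, 9 on day 2, 8 on day 3, 9 on day 7 and 1 on day 14. Over all 16824 genes 935, 1006, 577, 647 and 52 were lower on these days. Of the podocyte genes 1, 3, 2 and 2 were called lower on days 1, 2, 3 and 7 and the rest were not called. Their median log2 fold change was -0.075 on day 1, -0.29 on day 2, -0.13 on day 3 and 0.60 on day 7. The part of these cells in the level of Vegfa was not tested. Of 16 tested targets of hypoxia-inducible factor, which also drives Vegfa, 2 rose and 2 fell on day 1, when 857 of all 16824 genes rose and 935 fell. On day 2, 1 rose and 2 fell (1210 and 1006 of all genes), and 1 fell without day 2 replicate 2. Hk2, a glycolytic enzyme, rose 11.7-fold on day 1 (adjusted p = 0.00424), from an untreated mean near the floor (0.089 CPM) to 1.10 CPM. P4ha2 rose 2.35-fold (adjusted p = 0.0375). Ndrg1, a stress-response gene, fell 2.47-fold and Pdk1 2.63-fold (adjusted p = 0.000406 and 0.0417).

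Vegfc (ENSMUSG00000031520), the ligand of Flt4, had few reads and single high libraries, and it passed no test. It was at 0.707, 0.975 and 0.877 CPM untreated, and at 1.08, 0.845 and 11.7 CPM on day 2. Day 2 replicate 3 held 305 reads of it, the most of all libraries, and day 2 replicate 2 held 5. Day 1 replicate 3 (4.49 CPM) and day 7 replicate 1 (5.03 CPM) also stood above their groups, whose other libraries ran from 0.262 to 1.30 CPM. The day 2 log2 difference was 2.43 (SE 1.10, adjusted p = 0.162).

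Angpt1 (ENSMUSG00000022309) and Angpt2 (ENSMUSG00000031465), the ligands of Tek, differed in no comparison with all libraries in the fit. Angpt1 was at 6.14, 2.69 and 3.38 CPM untreated, 2.67, 1.62 and 1.23 on day 1, and 4.55, 0.676 and 1.27 on day 2. It was at 4.41, 5.06 and 3.64 CPM on day 7 and 6.25, 5.76 and 3.02 on day 14. Its day 1 libraries were all under the lowest untreated one, yet the log2 difference of -1.15 (SE 0.61, adjusted p = 0.262) did not pass. An exon of Angpt1 overlaps Gm17473 on the opposite strand in the GENCODE annotation. Whether counting used strand is not given in the sources used here, so reads of the 2 genes cannot be told apart. Angpt2 was at 2.61, 3.92 and 17.6 CPM untreated and 4.87, 16.3 and 3.33 on day 7, with 1 high library in each. On days 1, 2, 3 and 14 it ran from 2.12 to 8.76 CPM, and its log2 difference on day 2 was -0.73 (SE 0.71, adjusted p = 0.563).

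The pairs Angpt2 to Angpt1 and Flt1 to Kdr were also taken as log2 ratios of CPM within each library, with a prior count of 2. This cancels scaling apart from the prior count, which shrinks ratios of few reads. It does not cancel gene length, so that only shifts between groups are read. The Flt1 to Kdr log2 ratio was 0.23, -0.004 and 0.48 in untreated libraries. On day 1 it was 2.12, 0.45 and 1.51, and on day 2 it was 0.43, 3.09 and 2.41. Days 3, 7 and 14 had means of 0.70 ± 0.36, 1.08 ± 0.26 and 0.59 ± 0.05 (SD, n = 3), beside 0.24 ± 0.24 untreated. The ratio on days 7 and 14 lay above all untreated libraries, and that on days 1, 2 and 3 overlapped them. The 3.09 of day 2 replicate 2 rests on 6 reads of Kdr and 54 of Flt1. The Angpt2 to Angpt1 log2 ratio was 0.56 ± 1.79 untreated, 1.29 ± 1.62 on day 2 and -0.11 ± 0.98 on day 14, with overlap between all of these. No p is given for either ratio.

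**Figure D2:**
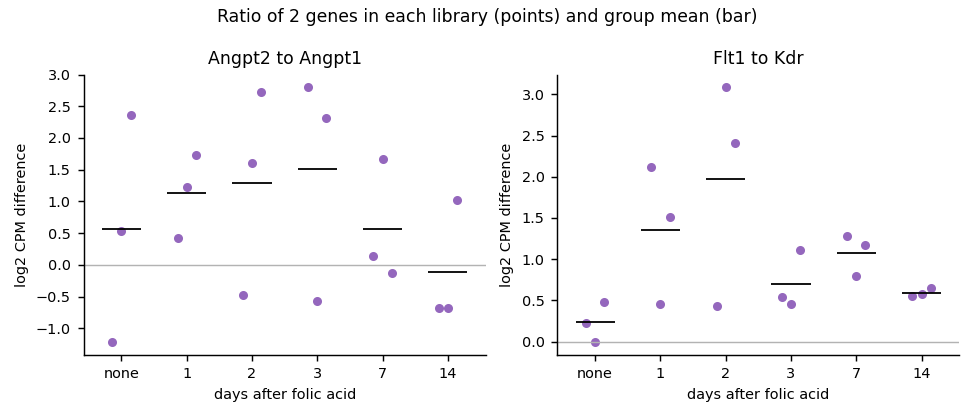
Log2 ratio of Angpt2 to Angpt1 (left) and of Flt1 to Kdr (right) in each of the 18 libraries by day after folic acid; points are libraries and bars group means. The Flt1 to Kdr ratio has a mean of 0.24 untreated and 1.98 on day 2, where 1 of the 3 libraries stays at 0.43.

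The return was read against day 2, the group with the lowest mean of 5 of the called members. These 3 comparisons share the day 2 libraries. Day 2 is the low point of those members in these same data, so rises from it can be overstated. The calls are no independent test of a return. On day 3 edgeR called 0 members (0.25% of all genes in either direction), 1 at an unadjusted p under 0.05, and DESeq2 called 1 and limma-voom 0. That gene was Vegfa, at log2 0.67 (SE 0.20, adjusted p = 0.118; 0.0147 in DESeq2). Emcn, Kdr, Plvap, Tek and Vegfa, 5 members, lay wholly above day 2 on day 3, where 9% of all genes did so, 5 again on day 7 (12.4%), and 6 on day 14 (13.7%), Flt4 being the sixth. On day 7, 3 members were called higher (2.77% of all genes). Emcn rose 4.22-fold (log2 2.08, SE 0.38, adjusted p = 0.00479), Plvap 4.03-fold (2.01, SE 0.46, adjusted p = 0.0164) and Kdr 2.92-fold (1.54, SE 0.42, adjusted p = 0.0389), while Tek differed by 1.27 (SE 0.41, adjusted p = 0.0797). On day 14, 5 members were called higher (4.68% of all genes). Tek rose 5.92-fold (log2 2.57, SE 0.43, adjusted p = 0.00123), Emcn 5.78-fold (2.53, SE 0.38, adjusted p = 0.000604), Kdr 4.64-fold (2.22, SE 0.42, adjusted p = 0.00335), Plvap 3.60-fold (1.85, SE 0.45, adjusted p = 0.0163) and Vegfa 2.03-fold (1.02, SE 0.20, adjusted p = 0.00412). Flt1 differed by 0.73 (SE 0.46, adjusted p = 0.347). Its lowest mean was on day 3 (5.44 CPM, beside 15.4 on day 14), and a rise from that day was not tested.

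Some of these calls rested on single libraries. Without the shallow day 2 replicate 2, 2 members were called higher on day 7 and 5 on day 14. The day 7 rise of Kdr was lost without day 2 replicate 1 (log2 1.64, adjusted p = 0.0653), day 2 replicate 2 (1.28, 0.122), day 7 replicate 2 (1.32, 0.138) or day 7 replicate 3 (1.45, 0.100), and also in limma-voom (1.40, 0.14) and with the replicate number as a block (1.46, 0.0650). That of Plvap was lost without day 2 replicate 3 (1.89, 0.0511) or day 7 replicate 2 (1.53, 0.0893), and its day 14 rise without day 2 replicate 3 (1.72, 0.0571) or day 14 replicate 2 (1.73, 0.0531). Angpt1 rose on day 14 against day 2 when day 2 replicate 1 was left out (2.29, adjusted p = 0.0350). Emcn was called in all fits that left out 1 library on both days, and so were Tek, Kdr and Vegfa on day 14. With only the groups compared in the fit, Kdr (2.24, adjusted p = 0.0563), Vegfa (1.03, 0.0896) and Plvap (1.86, 0.0698) were lost on day 14, and Kdr (1.58, 0.191) and Plvap (2.03, 0.115) on day 7.

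**Figure D3:**
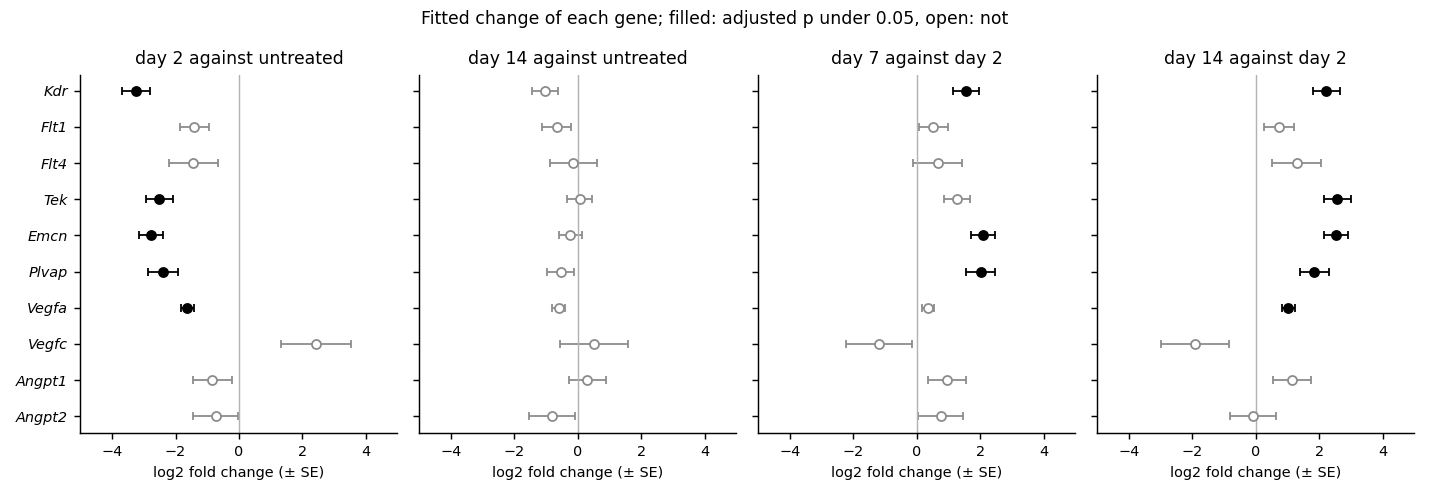
Fitted log2 fold change (x axis) of each of the 10 genes in 4 comparisons, with bars of 1 SE from edgeR; filled points passed at an adjusted p under 0.05 and open ones did not. Kdr is at -3.26 and Vegfa at -1.62 on day 2 against untreated, no point is filled on day 14 against untreated, and 3 and 5 points are filled to the right of 0 on days 7 and 14 against day 2.

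Of 20 other genes of the VEGF and angiopoietin pathway, 18 were tested. Against untreated, 2 were lower on day 1, 1 was higher and 2 lower on day 2, 2 were lower on day 3 and 1 on day 7. Without day 2 replicate 2, 1 was lower on day 2. Over all 16824 genes 935, 1006, 577 and 647 were lower on these days, and 1210 were higher on day 2. Their median log2 fold change on day 2 was -0.45, beside 0.03 over all genes. Ptprb, the endothelial phosphatase that acts on TIE2, fell on days 1, 2 and 3 from 40.5 ± 1.72 CPM to 14.0 ± 4.43, 17.2 ± 5.85 and 16.3 ± 3.40, and was at 44.1 ± 14.6 on day 7. Esm1, a VEGF-inducible endothelial proteoglycan, was at 11.2 ± 1.27 CPM untreated and at 0.713 ± 0.519 on day 2 (14.0-fold lower). It was still lower on day 7, at 2.80 ± 0.234 CPM (adjusted p = 0.0436). Shb, an adaptor of VEGFR2, rose 2.65-fold on day 2 (log2 1.40, SE 0.38, adjusted p = 0.0178), and Vegfd, a ligand of Flt4, fell 9.07-fold on day 1 (-3.18, SE 0.73, adjusted p = 0.00809). On day 14 edgeR called 0 of the 18 against untreated, with 4 at an unadjusted p under 0.05, DESeq2 1 and limma-voom 0. Against day 2, 1 was higher on day 7 (2.77% of all genes) and 3 on day 14 (4.68%; Esm1, Nrp2 and Ptprb), with 1 lower (Shb). Without day 2 replicate 2 the day 7 call was lost and 1 was higher and 1 lower on day 14.

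Other endothelial genes followed the members in part. Of the 29 of the endothelial list, edgeR called 0 on day 1 (5 at an unadjusted p under 0.05, DESeq2 2, limma-voom 0). It called 8 lower on day 2 (5.98% of all genes) and 4 lower on day 3 (3.43%). It called 0 on day 7 (1 unadjusted, DESeq2 1, limma-voom 0) and 0 on day 14 (2 unadjusted, 0 in both other tools). The list's median log2 fold change was -0.55, -1.54, -0.63, -0.21 and -0.01 in turn. On day 2, 23 of the 29 had a log2 fold change below 0, the highest was 1.05, and 21 were not called. The 3 with the largest called falls that day, at 1 CPM or more, were Erg, Clec14a and Esam. The transcription factor Erg fell 11.3-fold (adjusted p = 0.0104), the surface protein Clec14a 9.08-fold (0.0144) and the junction protein Esam 6.09-fold (0.0125). Their day 2 means were near the floor, at 0.301, 0.332 and 0.514 CPM, from 3.25, 3.53 and 3.17 untreated. Over the 6 groups, where 19.7% of all genes passed, Clec14a and Pecam1 did so (adjusted p = 0.00743 and 0.0103). Erg (0.0749), Esam (0.0618) and Cdh5 (0.479) did not. Vwf, stored in endothelial granules, was at 2.38 ± 0.767 CPM untreated and 2.98 ± 1.09 on day 2. Against day 2, 6 of the list were higher on day 7 (2.77% of all genes) and 11 on day 14 (4.68%). These became 1 and 4 without day 2 replicate 2, while the 8 lower calls of day 2 stayed 8 in number. Summed over the list, untreated libraries held 140 to 203 CPM, day 2 held 71.0 to 127 and day 14 held 173 to 239.

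Of 8 genes tied to endothelial activation, 5 were tested, and 3 of these (Vcam1, Icam1 and Edn1) were called higher on days 1, 2, 3 and 7, though other kidney cells express them too. The other 2, Procr and Thbd, are anticoagulant receptors named after their values were seen. In edgeR neither passed a test against untreated, while DESeq2 called 4 of the 5 genes higher on day 1. Procr and Thbd differed by log2 -2.54 and -1.22 on day 2 (adjusted p = 0.0974 and 0.170). On days 7 and 14 none of the 5 had a log2 fold change below 0 against untreated. Procr differed over the 6 groups (adjusted p = 0.0149). It rose 19.5-fold from day 2 to day 7 (adjusted p = 0.0179), from 0.040 to 1.15 CPM. Vcam1, a leukocyte adhesion molecule, went from 1.59 CPM untreated to 22.5, 49.5, 198, 101 and 58.7 CPM in the means of days 1 to 14, and was 125-fold higher on day 3 (adjusted p = 2.62e-07). Icam1 has the same role, Edn1 encodes the precursor of the constrictor endothelin-1, and Vcam1 and Icam1 were also called higher on day 14. Of 9 tested inhibitors of angiogenesis, 3, 5, 4, 3 and 1 were called higher at the successive times, with 3 on day 2 without day 2 replicate 2. Over all 16824 genes 857, 1210, 703, 651 and 208 were higher at these times. Limma-voom called 2, 2, 2, 3 and 1 of the inhibitors higher, and DESeq2 3, 5, 4, 5 and 3. Adamts1, a protease that can bind VEGF-A, was 9.41-fold higher on day 1 (adjusted p = 6.62e-05). Of 10 pericyte genes, whose cells make Angpt1, 4 were called lower on day 2 (5.98% of all genes), among them Abcc9 (7.81-fold, adjusted p = 0.000383). Only 6 of the 10 had a log2 fold change below 0 on day 2. The list's median was 0.30 on day 1 and -0.46 on day 2 (-0.08 without day 2 replicate 2). On day 7 Cspg4 and Pdgfrb were called higher, and on day 14 edgeR called 0 of the 10 against untreated (DESeq2 2 higher). The sum of the 10 was 70.5 to 85.3 CPM untreated, 18.9 to 42.6 on day 2 and 112 to 132 on day 14. Of 9 macrophage genes, 2 were higher and 1 lower on day 2 (1210 and 1006 of all 16824 genes), and 7 were higher on day 7 (651). The lower call of day 2 was lost without day 2 replicate 2. What these cells add to the levels of the 10 members was not tested.

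**Figure D4:**
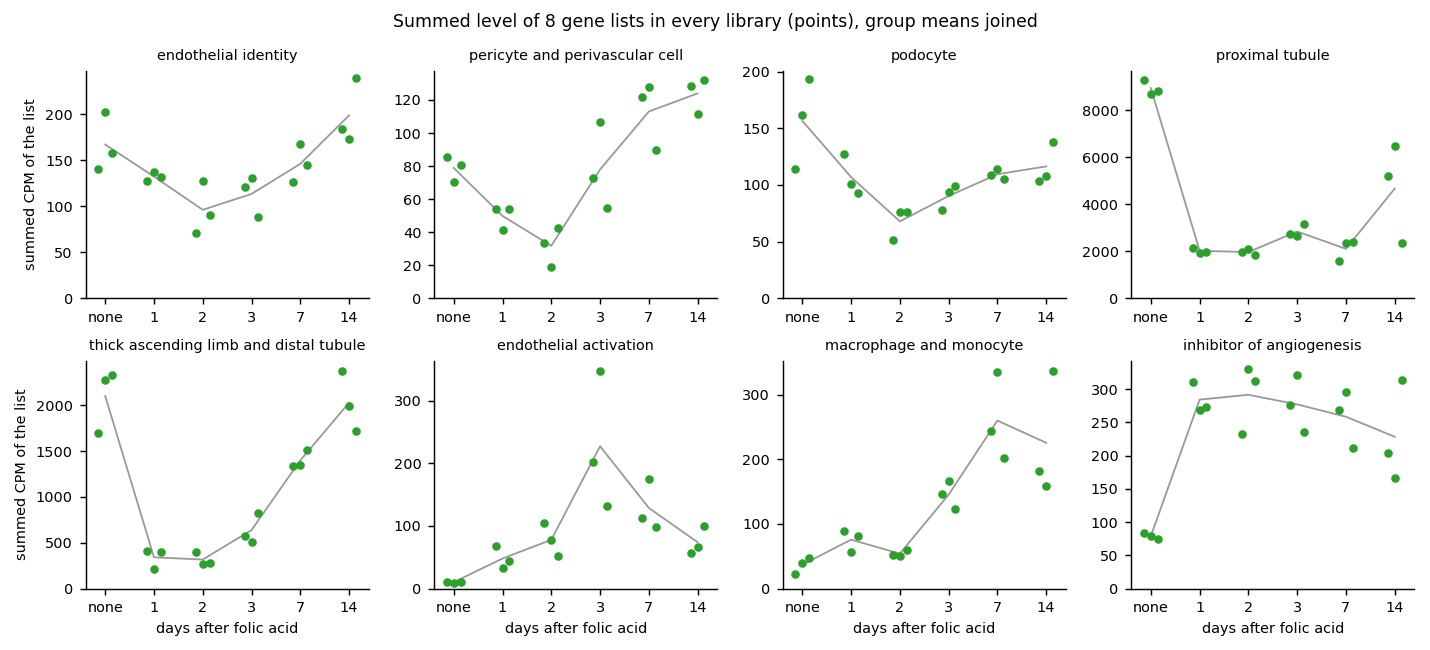
Summed level (CPM) of 8 of the gene lists in the 18 libraries by day after folic acid; points are libraries, the grey line joins group means and each panel has its own scale from 0. The endothelial list spans 71.0 to 127 CPM on day 2 and 173 to 239 on day 14, beside 140 to 203 untreated.

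Among the members, Kdr and Tek had the most similar course. Over the 18 libraries the gene nearest to Kdr on the log2 CPM scale was Tek (Pearson r = 0.94), followed by Igfbp5 (0.94) and Acadsb (0.93). Kdr was likewise first for Tek, and second for Emcn (r = 0.89), after Aacs (0.89). The nearest genes to Vegfa were Cyp4b1, Ces1f and Susd2, each with r = 0.93, and that to Flt1 was Cd300lg (0.87). These values describe libraries that share the injury's time course, and each was taken as the highest among all tested genes.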

How the data were processed

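Total RNA of frozen mouse kidney, 10 ng per library, was amplified with NuGEN SPIA reagents, per the labels. The deposited files hold raw read counts per Ensembl gene. Per the submitters' processing notes the authors used cutadapt, TopHat2 2.07, HTSeq and DESeq with build NCBIM37, and the strand setting is not given in the sources used here. The authors' normalized values were not used. Symbols matched 32919 of 37991 identifiers. The 5 rows for reads assigned to no gene held 34.5 to 51.3% of the tallied reads and were left out.

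Counts were fitted with edgeR 4.0.16 (R 4.3.3; TMM, filterByExpr, quasi-likelihood F test) in 1 model over 18 libraries and 6 groups, and p-values were Benjamini-Hochberg adjusted over 16824 genes. 8 comparisons of 2 groups and 1 test over all groups were made. CPM used TMM scaling, and log2 CPM for likeness and for the 2 ratios a prior count of 2. Alternatives were DESeq2 1.42.0, limma-voom (limma 3.58.1), other scalings and filters, a replicate block, only the groups compared, and leaving out each library. The model was tested on simulated data.

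The 10 members and the 11 gene lists (136 of 138 entries found) were chosen with earlier results of these data known. Up to 3 genes of a list per direction were named, those with the largest called change at 1 CPM or more. 1 of the genes selected in this way is not reported here. Pecam1, Cdh5 and Vwf were named after their values were seen. Same-numbered libraries did not deviate together (correlations of -0.0543 to 0.0416 over 45 pairs), so the numbers were taken as names and not as pairs. No 2 libraries held the same counts.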

Additional observations from a re-analysis of the deposited data

Results flagged for a closer look

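The levels of 5 members on day 7 or day 14 differed from those on day 2. On day 7 these were Kdr (log2 1.54), Emcn (2.08) and Plvap (2.01). On day 14 they were Kdr (2.22), Vegfa (1.02), Tek (2.57), Emcn (2.53) and Plvap (1.85). Each is the tested difference between 2 time points that were both measured against the same untreated libraries. These 5 members had their lowest mean on day 2, so the rises from it can be overstated. Vegfa and Tek were called on day 14 and not on day 7, and the difference between those 2 days was not tested.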

How the results depend on the processing

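Of 80 differences of a member between 2 groups, 26 were called, and 16 of these passed whichever of the 6 libraries was omitted. Median-ratio scaling, scaling without mitochondrial genes, a filter of 1 CPM and DESeq2 ended none of the 26. Limma-voom ended 1, no filter 2, only the groups compared 5 and library totals 6. The replicate numbers did not pair the libraries: the replicate block ended 1 call (Kdr, day 7 against day 2, log2 1.46, adjusted p = 0.065), added 1 (Flt1 on day 2) and turned the uncalled Angpt2 of day 14 against day 2 to 0.031.

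Counts of called members that moved by over 1.5 times were as follows, with the full range where 1 library was left out. Library totals gave 3 on day 3 and 0 on day 7. DESeq2 gave 1 on day 14 and 1 for day 3 against day 2. Only the groups compared gave 1 for day 7 and 2 for day 14 against day 2. Leaving out 1 library gave 3 to 4 on day 1, 3 to 6 on day 3, 1 to 2 on day 7 and 1 to 3 for day 7 against day 2. Smaller moves included those from 5 to 6 on day 2 and from 2 to 3 on day 7 (DESeq2 and limma-voom for both), to 4 (DESeq2) or 2 (limma-voom) for day 7 against day 2, and to 4 to 6 for day 14 against day 2 with 1 library left out. Over all genes, 260 were called on day 14 (71 to 922 over the alternatives other than a left-out library) and 42 for day 3 against day 2 (0 to 724).

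Signs turned for uncalled differences alone. With library totals these were Angpt2 on day 3 (0.15), Plvap on day 7 (0.30), and Flt4 (0.22) and Emcn (0.010) on day 14. With limma-voom they were Flt4 on day 1 (-0.73) and against day 2 on day 3 (-0.017), and Angpt2 on day 14 against day 2 (0.015). With 1 library left out, Flt4 ranged from -1.45 to 0.79 on day 1 and -0.58 to 0.087 on day 14. Vegfc ranged from -0.092 to 1.75 on day 1, -0.049 to 1.03 on day 3, -0.70 to 1.71 on day 7 and -0.013 to 0.78 on day 14. Angpt2 ranged from -1.45 to 0.25 on day 1, -1.52 to 0.54 on day 2, -0.92 to 0.78 on day 3, -0.96 to 1.31 on day 7 and -1.24 to 0.46 on day 14. Angpt1 ranged from -0.13 to 0.53 on day 7, Tek from -0.11 to 0.14 and Emcn from -0.72 to 0.051 on day 14. Against day 2, on day 3 the ranges were -0.93 to 0.54 for Flt4, -2.48 to 0.44 for Vegfc, -0.91 to 0.86 for Angpt1 and -0.16 to 1.04 for Angpt2. On day 7 they were -3.13 to 1.05 for Vegfc and -0.24 to 1.55 for Angpt2, and on day 14 -2.43 to 0.31 for Vegfc and -0.40 to 0.70 for Angpt2. The cause was not tested. Depth limits day 2 replicate 2, with 4 reads of Tek, 4 of Angpt1, 5 of Vegfc and 6 of Kdr.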
